A study of Rattus norvegicus with 25 samples.

Results

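Sulf1 and 9 other genes of heparan sulfate modification (Sulf2, Hs3st1, Hs3st2, Hs3st4, Hs6st1, Hs2st1, Ndst1, Ndst3 and Hpse) were described in rat hippocampus after a traumatic brain injury or a sham procedure. They were picked by gene symbol from the 34322 genes of the count table, and all 10 passed the filter on low counts that left 21064 genes. The choice was made with earlier results of these data known, since Sulf1 had already stood out in injured over sham hippocampus. For these 10 genes, injured over sham tissue is therefore a description with no p-value. How many of them pass a threshold there is counted beside the share of all genes that do, and no support is drawn from it. Tests are given between injured groups and among injured libraries. Calls over sham are also printed for other genes of the pathway. Their lists were chosen with the same results known, so no support is drawn from those calls.

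The series measured polyA RNA of the hippocampus in adult male Sprague-Dawley rats of 6 to 7 weeks, by RNA-seq, to follow recovery from injury with thymus supplements. Controlled cortical impact (CCI) strikes the exposed cortex, under which the hippocampus lies. TNF-CCI rats had the impact and a dosage labelled thymus nuclear factor (not the cytokine of that abbreviation), TCF-CCI rats the impact and thymus cytosolic factor, and TD-CCI rats the impact and what the labels call a thymus dosage. Vehicle-CCI rats had the impact and vehicle, and Vehicle-sham rats vehicle and no impact. Each of the 5 groups had 5 libraries. The 1 uninjured group received vehicle, so that injury and supplement cannot be told apart when a supplement group is set against sham. The sources used here give no dose, time after impact or side of the brain. They do not say that libraries were separate animals, so a p-value here speaks of the spread among the libraries at hand, which may be technical.

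Heparan sulfate is a chain of repeating sugars carried by core proteins on the cell surface and in the matrix, where it binds growth factors, morphogens, chemokines and guidance cues. Ndst enzymes replace acetyl groups with sulfate on the growing chain, and Hs2st, Hs6st and Hs3st enzymes then add sulfate at the 2-O, 6-O and 3-O positions. Sulf1 and Sulf2 act on the finished chain outside the cell and remove 6-O sulfate, and Hpse (heparanase) cuts the chain into fragments.

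RefSeq promoters (GRCr8, 250 bases before to 50 after the annotated start) were matched by symbol for 8 of the 10 genes, all but Sulf1 and Ndst3. Those of Hs3st4 (chr1:187969877-187970176, plus strand) and Hpse (chr14:9200721-9201020, plus strand) are shown because, after Sulf1, these genes lay farthest from 0 in injured over sham tissue. Capitals mark the GC box GGGCGG, searched on both strands.
Hs3st4: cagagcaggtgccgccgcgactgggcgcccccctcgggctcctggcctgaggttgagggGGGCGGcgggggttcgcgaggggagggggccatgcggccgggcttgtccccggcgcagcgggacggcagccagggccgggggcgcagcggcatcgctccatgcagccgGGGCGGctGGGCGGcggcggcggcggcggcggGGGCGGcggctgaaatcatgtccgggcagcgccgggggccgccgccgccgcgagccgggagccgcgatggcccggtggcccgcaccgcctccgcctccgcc
Hpse: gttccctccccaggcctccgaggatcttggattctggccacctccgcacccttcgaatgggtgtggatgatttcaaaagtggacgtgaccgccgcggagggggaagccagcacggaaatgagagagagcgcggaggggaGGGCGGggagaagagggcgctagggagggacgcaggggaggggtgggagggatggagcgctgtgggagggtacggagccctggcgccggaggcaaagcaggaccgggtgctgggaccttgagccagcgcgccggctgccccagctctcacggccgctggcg
The Hs3st4 promoter was 82.7% G and C, with 46 CpG dinucleotides and 4 GC boxes, at positions -191, -83, -75 and -51 from the start. The Hpse promoter was 68.7% G and C, with 24 CpG and 1 GC box at -111. The medians over all 33469 promoters of the table were 51.7% G and C and 7 CpG. At least 1 GC box lay in 6 of the 8 promoters and in 33.1% of all promoters. CCAAT lay in 2 of the 8 and in 37.5% of all, and TATAAA in 0 of the 8 and in 14.2% of all. A match describes the letters only.

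The libraries held between 27.3 and 44.9 M counts (M, 1e6), and the median library 32.8 M. Levels are CPM, the counts of a gene per 1e6 of its library's TMM-scaled total, and log2 fold changes are from 1 edgeR fit of all 25 libraries with their standard error (SE). Markers of dentate granule neurons summed to 260 to 342 CPM in the CCI libraries and 241 to 353 CPM in sham, and markers of CA1 neurons to 132 to 526 CPM in CCI and 223 to 534 CPM in sham, so defining hippocampal genes were present in every library. Of 10 markers of microglia and macrophages, 9 rose when the CCI groups together were set against sham (edgeR adjusted p under 0.05), where 2.24% of all genes were called higher. The median log2 fold change of these 10 markers was 1.16. Vehicle-sham 2 and Vehicle-sham 3 stood apart, where the mitochondrial ribosomal RNA genes took 25.6% and 17.3% of all counts, against 2.18% to 10.9% in the other 23 libraries. Without Vehicle-sham 2 edgeR called 14 genes in all and without both libraries 0, against 1248 with all libraries. The microglia and macrophage median was then 1.28 and 1.24, with 10 of 10 above 0 and 0 called. Leaving out both libraries was added after the data were seen.

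Sulf1 (chromosome 5, 6362896 to 6526174, minus strand, mRatBN7.2 as in the deposited table) was higher in all 4 CCI groups than in sham. Its levels were 16.5, 9.85, 15.6, 10.9 and 16.7 CPM in the TNF-CCI libraries 1 to 5. They were 12.6, 5.92, 12.9, 10.6 and 7.71 CPM in TCF-CCI. They were 18.1, 8.58, 11.9, 15.7 and 12.4 CPM in TD-CCI. TD-CCI 1 was thus the highest library of the series and replicate 2 was low in all 3 supplement groups. The Vehicle-CCI libraries held 16.7, 10.7, 12.5, 5 and 5.35 CPM. The Vehicle-sham libraries held 2.68, 4.21, 4.66, 2.28 and 4.57 CPM. All 20 CCI libraries lay above every sham library, but Vehicle-CCI 4 and 5 came within 1 CPM of the highest sham library.

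**Figure D1:**
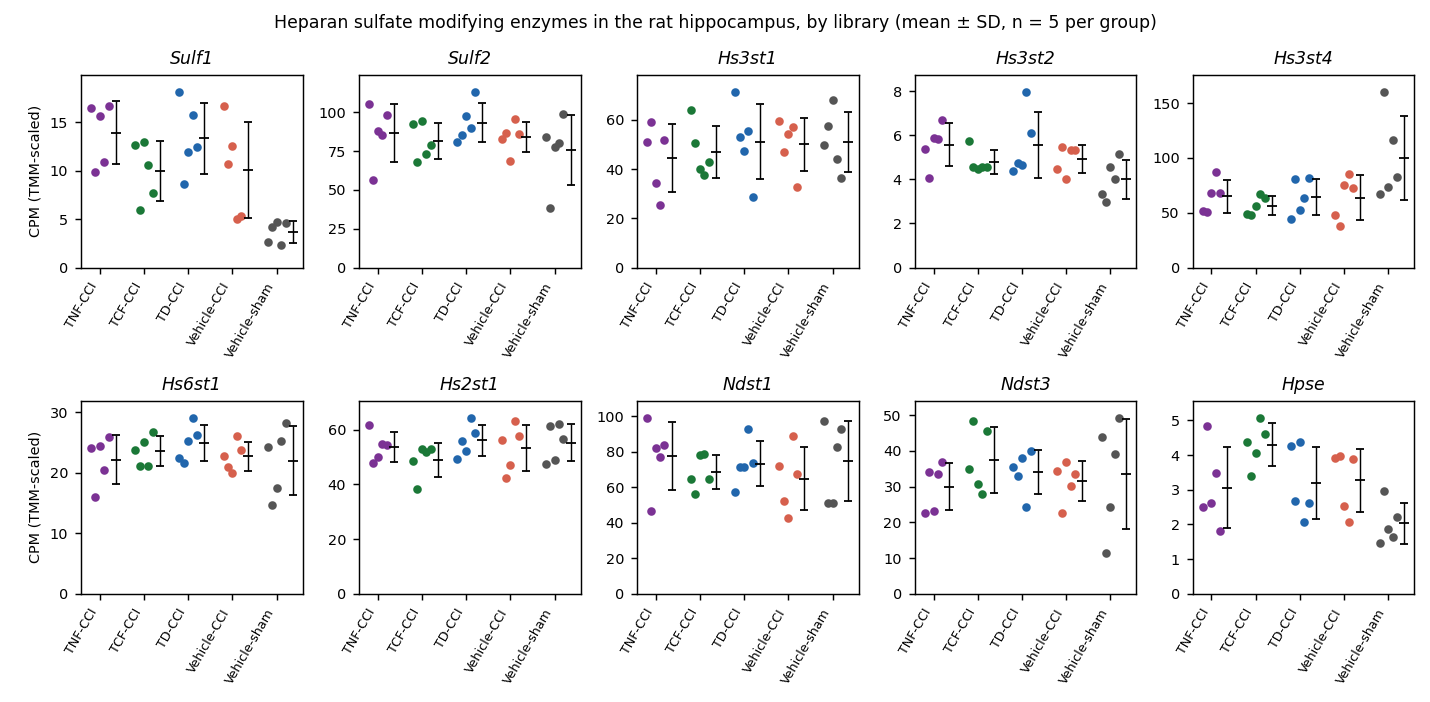
Level of each of the 10 genes in every library (points, CPM after TMM scaling, linear axis from 0), with the mean and SD of each group of 5 libraries beside them. Sulf1 has no overlap between the CCI groups and Vehicle-sham, whereas Hs3st4 is spread widely in Vehicle-sham, from 66.8 to 160 CPM.

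The mean of Sulf1 was 11.8 ± 3.97 CPM over the 20 CCI libraries (SD) and 3.68 ± 1.12 CPM over the 5 sham libraries. Averaged over the 4 CCI groups, its log2 fold change over sham was 1.67 ± 0.27 (SE), with a 95% interval of 1.11 to 2.22. By group the log2 fold change over sham was 1.92 ± 0.31 in TNF-CCI, 1.44 ± 0.31 in TCF-CCI, 1.86 ± 0.31 in TD-CCI and 1.45 ± 0.31 in Vehicle-CCI. These 4 values share the same 5 sham libraries. The authors' deposited tables gave Sulf1 1.44 in TCF-CCI and 1.85 in TD-CCI. Leaving out each library in turn gave 1.52 to 1.77 for the mean of the 4 groups. Without Vehicle-sham 2 and 3 together the value was 1.89, and edgeR then called 0 of all tested genes. In bulk tissue a change in the number of cells that express a gene and a change in RNA per cell cannot be told apart.

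Sulf2 (chromosome 3, 154822079 to 154904566, minus strand), the paralog with the same enzymatic activity, stayed near its sham level. It ran from 56.6 to 113 CPM in the CCI libraries and from 38.2 to 98.9 CPM in sham. Its log2 fold change was 0.19 ± 0.15 for the mean of the 4 CCI groups, with 0.19 ± 0.19 in TNF-CCI, 0.1 ± 0.19 in TCF-CCI, 0.3 ± 0.19 in TD-CCI and 0.15 ± 0.19 in Vehicle-CCI. The mean was 0.04 without Vehicle-sham 2, which held the lowest Sulf2 level of all, and -0.01 without Vehicle-sham 2 and 3 together. Sulf2 overlaps LOC120101929 on the other strand, and the sources used here do not state whether counting used strand, so its counts are less certain.

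Per kilobase of gene model, Sulf2 was much more abundant than Sulf1, at 19.3 ± 2.95 against 1.76 ± 0.59 CPM per kb in CCI (n = 20) and 16.9 ± 5.04 against 0.547 ± 0.166 in sham (n = 5). Sulf1 made up 8.34 ± 2.55% of the length-scaled counts of both genes in CCI and 3.52 ± 2.01% in sham. By group this share was 9.69 ± 1.11% in TNF-CCI, 7.4 ± 1.51% in TCF-CCI, 8.79 ± 2.83% in TD-CCI and 7.5 ± 3.84% in Vehicle-CCI. The share overlapped between CCI and sham, because Vehicle-sham 2, low in Sulf2, reached 6.82% and Vehicle-CCI 4 was at 3.37%. In both conditions most endosulfatase transcript was therefore Sulf2.

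**Figure D2:**
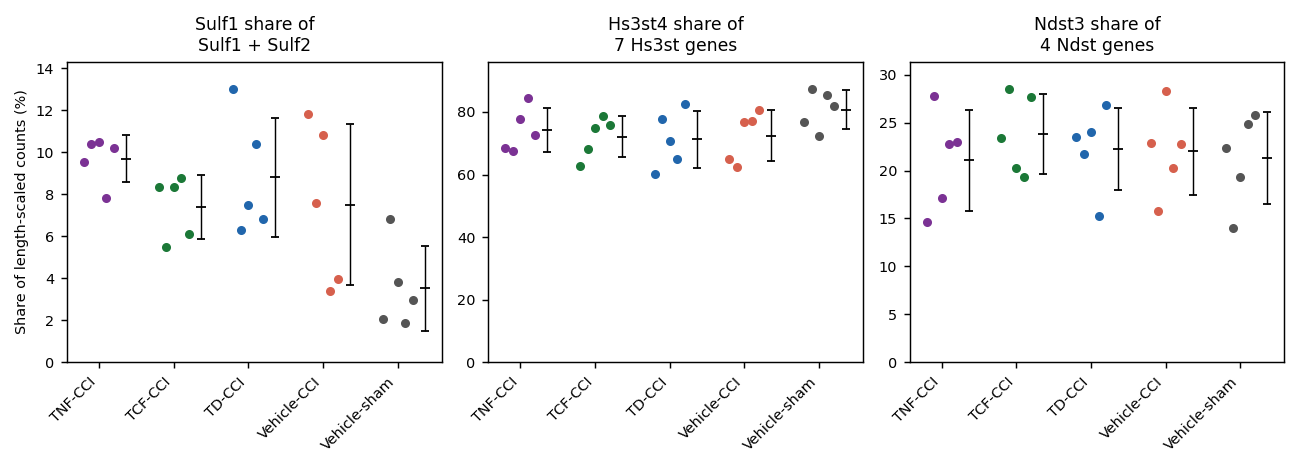
Share of length-scaled counts (%) that Sulf1, Hs3st4 and Ndst3 hold among the genes of their own family, in each library (points) with the mean and SD of each group (n = 5). The Sulf1 share averages 8.34% in CCI and 3.52% in Vehicle-sham, and Sulf2 holds the rest.

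Of the 3-O sulfotransferases, Hs3st4 (chromosome 1, 178539078 to 178944851, plus strand) was the lower one after injury. Its levels were 51.1, 51, 68.4, 86.7 and 67.5 CPM in TNF-CCI and 48.6, 48, 56.3, 66.7 and 63.1 CPM in TCF-CCI. They were 44.5, 80.8, 52.8, 63 and 81.3 CPM in TD-CCI and 47.5, 37.9, 75.2, 85.6 and 72.8 CPM in Vehicle-CCI. The sham libraries held 66.8, 160, 73.8, 116 and 82.5 CPM. TCF-CCI was the 1 CCI group with no library above the lowest sham library, and Vehicle-sham 2 and 4 stood above all 20 CCI libraries.

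The mean of Hs3st4 was 62.4 ± 14.7 CPM over the CCI libraries and 99.9 ± 38.6 CPM over the sham libraries (SD, n = 20 and 5). Its log2 fold change was -0.68 ± 0.18. By group it was -0.62 ± 0.24 in TNF-CCI, -0.82 ± 0.24 in TCF-CCI, -0.63 ± 0.24 in TD-CCI and -0.65 ± 0.24 in Vehicle-CCI over sham. Vehicle-sham 2 also had the highest mitochondrial rRNA share, and without it the mean was -0.41, a size over 1.5 times smaller, and edgeR no longer called the gene. Without Vehicle-sham 4 the call was lost as well, at -0.66. Without Vehicle-sham 2 and 3 together it was -0.49. Hs3st4 was the most abundant of the 7 Hs3st genes per kilobase, with 72.5 ± 7.2% of their length-scaled counts in CCI and 80.8 ± 6.21% in sham.

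Hs3st1 (chromosome 14, 71185826 to 71223263), known for making the antithrombin-binding site of heparan sulfate, averaged 48.2 ± 12.1 CPM in CCI and 51.1 ± 12.3 CPM in sham, with a log2 fold change of -0.09 ± 0.19. It was 0.17 without Vehicle-sham 2 and 3 together. Hs3st2 (chromosome 1, 175956161 to 176077400), a neuronal 3-O sulfotransferase, was scarce. It was at 5.37, 4.07, 5.87, 5.84 and 6.7 CPM in TNF-CCI and at 5.76, 4.55, 4.45, 4.57 and 4.58 CPM in TCF-CCI. It was at 4.36, 4.72, 4.64, 7.96 and 6.1 CPM in TD-CCI, at 4.45, 5.47, 4.02, 5.34 and 5.32 CPM in Vehicle-CCI and at 3.34, 2.96, 4.55, 4.01 and 5.16 CPM in sham. Every group overlapped with sham, though 10 of the 20 CCI libraries lay above every sham library. The log2 fold change was 0.37 ± 0.15 for the 4 CCI groups together, with 0.47 ± 0.19 in TNF-CCI, 0.25 ± 0.19 in TCF-CCI, 0.47 ± 0.19 in TD-CCI and 0.29 ± 0.19 in Vehicle-CCI, and 0.33 without Vehicle-sham 2 and 3 together. Hs3st2 overlaps LOC120099923 on the other strand, so the same doubt about strand applies.

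Of the enzymes of N- and 2-O sulfation, Ndst1, Ndst3 and Hs2st1 stayed close to sham with all libraries in the fit. Ndst4, which is not among the 10 genes, was at -0.69 (edgeR adjusted p = 0.0753). Ndst1 (chromosome 18, 54136887 to 54199545), the broadly expressed N-deacetylase and N-sulfotransferase, ran from 43 to 98.9 CPM in CCI and from 51 to 97.6 CPM in sham, with a log2 fold change of -0.08 ± 0.17. Ndst3 (chromosome 2, 211702728 to 211868159), a paralog found mainly in brain, ran from 22.5 to 48.5 CPM in CCI and from 11.3 to 49.1 CPM in sham, with a log2 fold change of -0.02 ± 0.21. Its lowest level of all was again in Vehicle-sham 2. Without Vehicle-sham 2 and 3 together, Ndst1 was at -0.34 and Ndst3 at -0.39. Hs2st1 (chromosome 2, 233508018 to 233641769), the single 2-O sulfotransferase, ran from 38.3 to 64.1 CPM in CCI and from 47.4 to 62.1 CPM in sham, a log2 fold change of -0.06 ± 0.1. Its 95% interval, -0.27 to 0.15, was the narrowest of the 10.

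Hs6st1 (chromosome 9, 38283502 to 38322684), which adds the 6-O sulfate that Sulf1 and Sulf2 remove, averaged 23.3 ± 2.98 CPM in CCI and 22 ± 5.72 CPM in sham. Its log2 fold change was 0.08 ± 0.13, 0 without Vehicle-sham 2 and -0.14 without Vehicle-sham 2 and 3 together. Among the 3 Hs6st genes it held 40 ± 5.9% of length-scaled counts in CCI and 30.2 ± 10.3% in sham, with 14.6% in Vehicle-sham 2 as the lowest share.

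Hpse (chromosome 14, 8896593 to 8937011, plus strand), the endoglycosidase that cuts the chains, was scarce and higher in CCI. It was at 2.51, 4.85, 2.63, 3.48 and 1.81 CPM in TNF-CCI and at 4.37, 3.4, 4.05, 5.06 and 4.62 CPM in TCF-CCI. It was at 4.25, 2.69, 4.38, 2.06 and 2.62 CPM in TD-CCI and at 3.92, 3.97, 2.53, 2.07 and 3.9 CPM in Vehicle-CCI. The sham libraries were at 1.46, 2.96, 1.88, 1.63 and 2.21 CPM. Every TCF-CCI library lay above every sham library, and the other 3 CCI groups overlapped with sham.

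The mean of Hpse was 3.46 ± 1.01 CPM over the CCI libraries and 2.03 ± 0.593 CPM over the sham libraries (SD, n = 20 and 5). Its log2 fold change was 0.77 ± 0.23. The group values over sham were 0.6 ± 0.27 in TNF-CCI, 1.09 ± 0.27 in TCF-CCI, 0.67 ± 0.27 in TD-CCI and 0.7 ± 0.27 in Vehicle-CCI. Raw counts of Hpse ran from 62 to 173 in CCI and from 44 to 75 in sham. Leaving out each library in turn gave 0.67 to 0.96, and edgeR called the gene in 6 of those 25 fits. Without Vehicle-sham 2 and 3 together the value was 0.97.

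**Figure D3:**
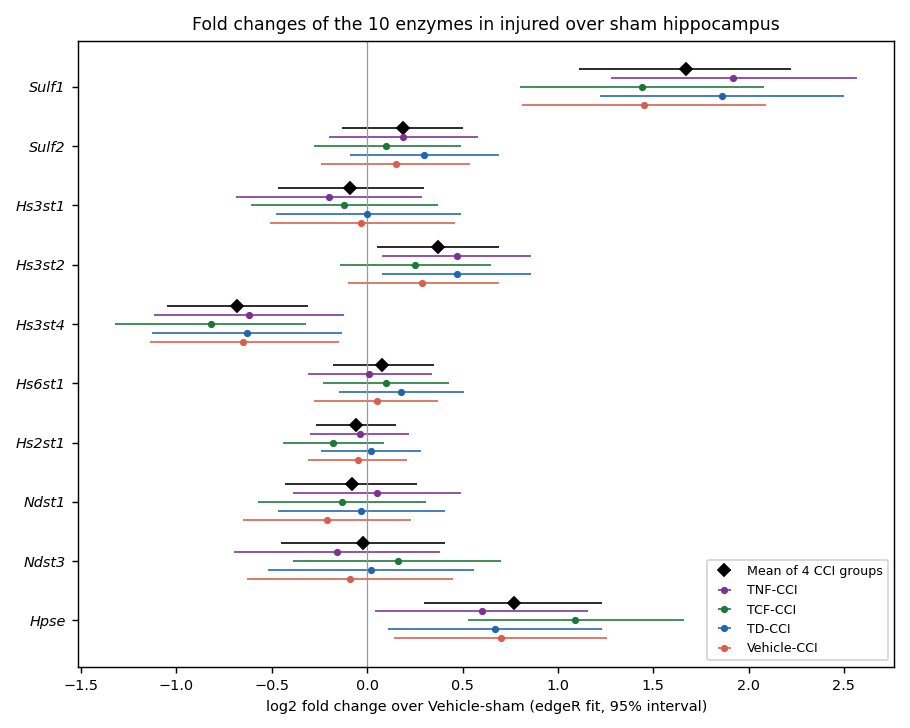
log2 fold change over Vehicle-sham of each gene, for the mean of the 4 CCI groups (black diamonds) and for each CCI group (coloured points), with 95% intervals of the edgeR fit. Sulf1 lies farthest above 0, at 1.67, Hpse is at 0.77 and Hs3st4 farthest below, at -0.68. All 5 values of a gene share the same sham libraries.

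Of the 10 genes, edgeR called 3 at an adjusted p under 0.05 when the 4 CCI groups together were set against sham, where 5.92% of all tested genes were called. Sulf1 and Hpse were called higher (background 2.24%) and Hs3st4 lower (3.68%). Sulf1 was the 1 gene of the 10 without overlap, where 0.0807% of all tested genes had none, 0.0427% higher and 0.038% lower. Nothing is read from these counts, since the genes were chosen with this comparison known. The median log2 fold change was 0.03 over the 10 genes and 0.01 over all genes.

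For the single groups over sham, edgeR called 1 of the 10 in TNF-CCI, Sulf1 (background 2.57%, or 1.71% higher and 0.864% lower), and 0 in TCF-CCI (background 0.0142%), TD-CCI (0%) and Vehicle-CCI (0%). At an unadjusted p under 0.05 there were 4 of the 10 in TNF-CCI (background 20%), 3 in TCF-CCI (18%), 4 in TD-CCI (16.5%) and 3 in Vehicle-CCI (12.7%). DESeq2 called 1 in TNF-CCI, 2 in TCF-CCI, 1 in TD-CCI and 1 in Vehicle-CCI. The share of all genes that DESeq2 called in these single groups was not counted, and the edgeR shares do not stand for it. For the mean of the 4 CCI groups DESeq2 called 2448 genes in all, against 1248 with edgeR. Sulf1 had no overlap with sham in TNF-CCI (background 3.51%, or 2.58% higher and 0.926% lower), in TD-CCI (3.23%, or 2.36% higher and 0.864% lower) and in Vehicle-CCI (0.783%, or 0.465% higher and 0.318% lower), and the other 9 genes overlapped there. In TCF-CCI 3 of the 10 had no overlap, Sulf1 and Hpse higher and Hs3st4 lower (background 3.55%, or 1.73% higher and 1.82% lower). Nothing is read from these counts either.

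The 10 genes were also ordered by level per kilobase. In CCI (n = 20) Hs3st4 had 22.5 ± 5.31 CPM per kb and Sulf2 19.3 ± 2.95. Hs2st1 followed at 10.7 ± 1.32 and Ndst1 at 7.26 ± 1.53. Hs3st1, Hs6st1 and Ndst3 were at 5.44 ± 1.37, 5.34 ± 0.683 and 5.19 ± 1.1. These 3 did not differ beyond their spread, nor did Hs3st4 and Sulf2. Hs3st2 at 2.28 ± 0.43, Sulf1 at 1.76 ± 0.59 and Hpse at 1.1 ± 0.323 were the lowest. In sham (n = 5) the 3 lowest were Hs3st2 at 1.76 ± 0.389, Hpse at 0.646 ± 0.189 and Sulf1 at 0.547 ± 0.166, and the last 2 did not differ beyond their spread.

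The supplements were then compared with vehicle and with each other among injured rats. These contrasts set no group against sham, but the sham libraries entered the fit that gave the spread. Between the 6 pairs of CCI groups, 0 of 60 tests of the 10 genes passed (edgeR, adjusted over all 21064 genes), 0 reached an unadjusted p under 0.05, and DESeq2 called 0. Fits of only the compared groups also called 0. Over all genes, 0% were called in each pair, and 1.44% to 5.12% reached an unadjusted p under 0.05, the 1.75% of TD-CCI over Vehicle-CCI and 3.46% of TNF-CCI over Vehicle-CCI among them. Sulf1 averaged 13.9 ± 3.29 CPM in TNF-CCI, 9.96 ± 3.07 in TCF-CCI, 13.3 ± 3.68 in TD-CCI and 10 ± 4.94 in Vehicle-CCI (SD, n = 5 each). Its log2 difference from Vehicle-CCI was 0.47 ± 0.3 in TNF-CCI (95% interval -0.14 to 1.09), -0.01 ± 0.3 in TCF-CCI (-0.63 to 0.6) and 0.41 ± 0.3 in TD-CCI (-0.21 to 1.02).

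Between supplements, Sulf1 differed by 0.48 ± 0.3 for TNF-CCI over TCF-CCI (-0.13 to 1.1), by 0.06 ± 0.3 for TNF-CCI over TD-CCI (-0.55 to 0.67) and by 0.42 ± 0.3 for TD-CCI over TCF-CCI (-0.19 to 1.04). The smallest p of the 60 belonged to Hpse, with 3.06 ± 1.17 CPM in TNF-CCI and 4.3 ± 0.623 CPM in TCF-CCI, a log2 difference of -0.49 ± 0.27 with a 95% interval of -1.04 to 0.06 (edgeR adjusted p = 0.985). For Hs3st4 the difference from Vehicle-CCI was 0.03 ± 0.24 in TNF-CCI (-0.47 to 0.52), -0.17 ± 0.24 in TCF-CCI (-0.67 to 0.32) and 0.02 ± 0.24 in TD-CCI (-0.48 to 0.51). Hpse differed from Vehicle-CCI by -0.1 ± 0.27 in TNF-CCI (-0.65 to 0.45), 0.39 ± 0.27 in TCF-CCI (-0.16 to 0.94) and -0.04 ± 0.27 in TD-CCI (-0.58 to 0.51). The Ndst3 difference of TNF-CCI over TCF-CCI was -0.32, with a 95% interval of -0.86 to 0.22. These intervals leave room for a sizeable difference either way, and a p that misses the threshold does not show that the groups act alike.

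Levels also varied within the injured groups, and this variation was set against 13 lists of cell type markers over the 20 CCI libraries. Of 130 pairs of gene and list, 24 passed, with Pearson r and Spearman rho both at a Benjamini-Hochberg adjusted permutation p under 0.05 (two-sided, 100000 resamples). Of these, 11 also passed with DESeq2 size factors, after centring on the group means, and without the 2 libraries farthest from the marker median. All points share a library, so that depth, composition and RNA quality enter both axes.

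Sulf1 levels followed those of 2 glial lists and a thalamic one. With microglia and macrophages r was 0.67 and rho 0.65 (permutation adjusted p = 0.0132 and 0.0179). After centring r was 0.66, and without the 2 farthest libraries 0.63, where the pair no longer passed. With astrocytes r was 0.59 and rho 0.71 (permutation adjusted p = 0.0291 and 0.00962), but the relation did not pass in 2 alternatives. Without the 2 farthest libraries r was 0.44 and rho 0.65, so that r rests on those samples, and after centring on group means r was 0.47 and rho 0.38. With the thalamus list r was 0.58 and rho 0.73 (permutation adjusted p = 0.0295 and 0.00576), and r was 0.83 without the 2 farthest libraries, one of which, TD-CCI 4, held 236 CPM of these markers against 43 to 94.3 CPM in the other CCI libraries. With endothelium r was 0.47 and rho 0.57, which did not pass. Without the 2 farthest libraries that pair passed (r 0.61, rho 0.63), but not after centring (r 0.37). With the neuron list r was -0.32 (not passed).

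The microglia and macrophage markers summed to 291 to 953 CPM in CCI and 236 to 373 CPM in sham. Of the 4 thalamus markers, only Prkcd was called higher. Slc17a6 was at -0.27 on the log2 scale and Tcf7l2 and Lef1 each at 0.4, and none of these passed. The thalamus list summed to 43 to 236 CPM in CCI and 36.7 to 68 CPM in sham. Of 8 astrocyte markers 2 rose, and the list summed to 2960 to 11300 CPM in CCI and 2900 to 4630 CPM in sham. Of 7 fibroblast and mural cell markers 1 rose, with sums of 89.2 to 151 CPM in CCI and 84.3 to 156 CPM in sham. Choroid plexus markers, of which 0 of 6 passed, summed to 5.97 to 3930 CPM in CCI and 18.9 to 378 CPM in sham. None of the calls in these lists held without Vehicle-sham 2 (0 called in each). There Prkcd was at 1.21 against 1.36 with all libraries, and the astrocyte median at 0.34 against 0.13. The part of these cell types in the Sulf1 difference was not tested.

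Hs3st4 had the closest relation to a neuronal list. With neurons r was 0.87 and rho 0.86 (permutation adjusted p = 0.0013 and 0.00162; the smallest raw p that these resamples can give is 1e-05). It was 0.88 after centring and 0.82 without the 2 farthest libraries. With interneurons r was 0.59 and rho 0.63 (permutation adjusted p = 0.029 and 0.0242), and r was 0.62 and 0.67 in those alternatives. With CA2 and CA3 neurons r was 0.52 (not passed). That pair passed without the 2 farthest libraries (0.74), but not after centring (0.49). With microglia and macrophages r was -0.44 (not passed). That pair passed after centring (-0.61), but not without the 2 farthest libraries (-0.43). The neuron markers summed to 822 to 1780 CPM in CCI and 1110 to 2120 CPM in sham, and 1 of 4 fell, Stmn2, at -0.7 on the log2 scale. Without Vehicle-sham 2 Stmn2 was at -0.34 and did not pass. Hs3st4 also had an r of -0.43 and a rho of -0.53 with the mitochondrial rRNA share over the CCI libraries. The part of these in the lower Hs3st4 level was not tested.

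Among the other genes, Ndst1 passed with 5 lists, among them CA1 neurons (r = 0.78) and oligodendrocyte precursors (0.75). Hs2st1 passed with 4, most closely CA1 neurons (r = 0.79), and Sulf2 with 4, most closely endothelium (r = 0.8) and oligodendrocyte precursors (0.78). Hs6st1 and Hs3st2 passed with 3 each, both with oligodendrocyte precursors, CA1 neurons and endothelium. Some of these pairs failed an alternative. Without the 2 farthest libraries, the endothelium pairs of Hs6st1 and Hs3st2, Hs3st2 with oligodendrocyte precursors, Sulf2 with astrocytes, Ndst1 with CA2 and CA3 neurons and with oligodendrocytes, and the Hs2st1 pairs other than CA1 did not pass. After centring, the CA1 pairs of Hs3st2 and Sulf2 did not pass. Hs3st1, Ndst3 and Hpse passed with 0 of 13 over all 20 CCI libraries. Some pairs that missed there passed in an alternative. Hs3st1 with neurons had an r of -0.56, and passed after centring (-0.57) and without the 2 farthest libraries (-0.75). Without the 2 farthest, Hs3st1 also passed with interneurons (-0.76) and with CA2 and CA3 neurons (-0.67), but not after centring. For Hpse, r with the CA1 list was -0.7 (permutation adjusted p = 0.00621), but rho was -0.55 (adjusted p = 0.0564). That pair passed after centring (r -0.74, rho -0.64), but not without the 2 farthest. Hs6st1 with astrocytes had an r of 0.45, and passed after centring (0.56) and without the 2 farthest libraries (0.65). Hs2st1 with astrocytes had an r of 0.65 but a rho of 0.54. It passed after centring (r 0.61), but not without the 2 farthest (0.58). Over the same 20 libraries, as a description, most of the genes moved with the mitochondrial rRNA share. Its r was -0.75 with Ndst1, -0.62 with Sulf2, -0.55 with Hs2st1, -0.52 with Hs3st2 and -0.47 with Hs6st1. It was 0.53 with Hs3st1, 0.39 with Hpse, 0.27 with Ndst3 and -0.27 with Sulf1. The part of RNA quality in the relations above was not tested.

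**Figure D4:**
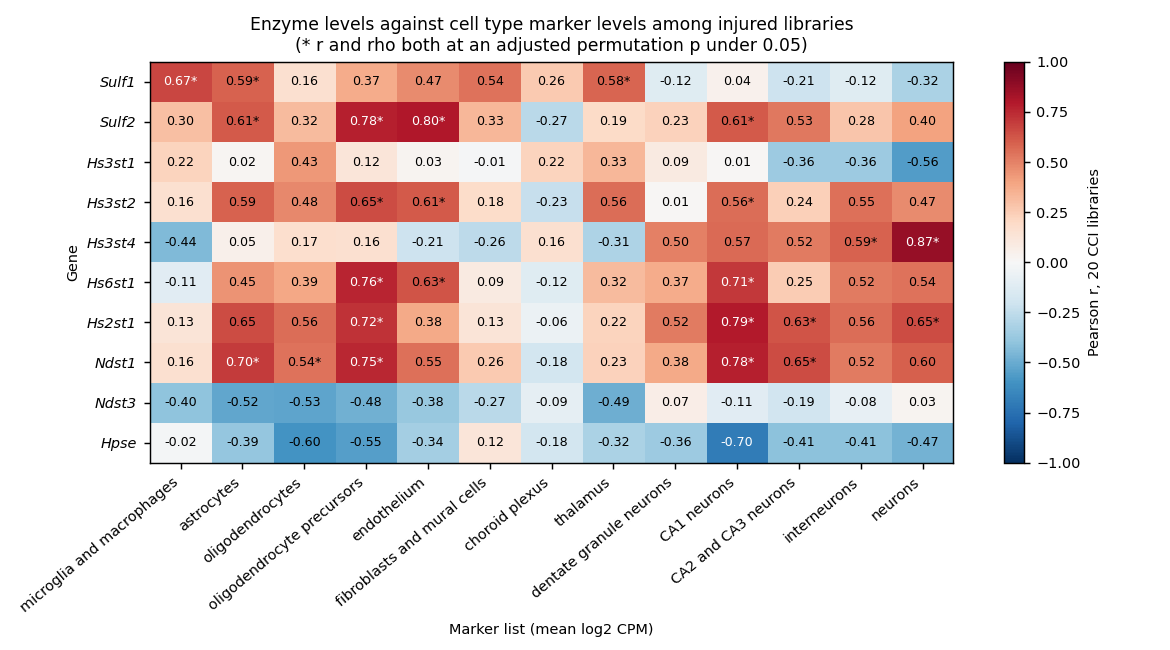
Pearson r between the level of each gene (rows) and the mean log2 level of each list of cell type markers (columns) over the 20 CCI libraries. Asterisks mark pairs that passed in both r and rho. Sulf1 passes with microglia and macrophages, astrocytes and thalamus, and Hs3st4 has the highest r, 0.87 with neurons.

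Some of the 10 genes moved together over the CCI libraries, as a description. The highest r were 0.78 between Sulf2 and Hs6st1, 0.74 between Ndst1 and Hs2st1, and 0.71 between Sulf2 and Ndst1. Sulf1 and Sulf2 had an r of 0.25, and Sulf1 and Hs3st4 of -0.3. Ndst1 and Ndst3 had an r of -0.41.

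The genes most like Sulf1 were ranked by Spearman rho among 16906 genes with a mean of at least 1 CPM. Over all 25 libraries they included Itpripl2 (rho 0.89), A2m (0.89), Lgmn (0.86) and Mxra8 (0.86). This ranking takes in the difference between CCI and sham for which Sulf1 was chosen. A2m encodes alpha-2-macroglobulin, a protease inhibitor, and averaged 103 CPM in CCI and 26.7 CPM in sham, while Lgmn encodes the lysosomal protease legumain. Over the 20 CCI libraries centred on their group means they were Ocln (0.84), Tob2 (0.8), Golim4 (0.79), Itpripl2 (0.78) and Osgep (0.78). Ocln encodes occludin of tight junctions. Itpripl2, at a mean of 1.58 CPM in CCI and 0.605 CPM in sham, was in both rankings, which share the 20 CCI libraries.

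Other genes of the pathway were counted from 8 lists with 74 genes, of which 72 were tested. Hs3st3a1 and Hs3st3b1 did not pass the filter, with 0 to 17 and 0 to 40 counts per library. With the CCI groups together over sham, 8 of the 72 were called (edgeR adjusted p under 0.05), 5 higher and 3 lower, or 11.1%, against 5.92% of all genes. These lists too were chosen with earlier results of these data known, so nothing is read from this share. The single calls and p-values of these genes, given below, are a description for the same reason. Hs3st6, among the 5 higher, passed the filter on low counts only through CCI libraries. The median log2 fold change was 0.07 over the 72 and 0.01 over all genes. All 8 calls were lost without Vehicle-sham 2, where 0 of the lists' genes passed, and 0 passed without Vehicle-sham 2 and 3 together.

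Of 8 genes of lysosomal breakdown of the chain, 3 rose, with a list median of 0.56 and 7 of 8 above 0. Sgsh, the sulfamidase that removes N-sulfate, rose to 5.54 ± 1.98 CPM in CCI against 2.46 ± 0.791 CPM in sham (log2 fold change 1.15 ± 0.28, edgeR adjusted p = 0.0254). Sgsh lay above every sham library in 19 of 20, and overlaps Slc26a11, so that its counts are less certain. Naglu, which removes N-acetylglucosamine, rose by 0.64 ± 0.18 (edgeR adjusted p = 0.0392) and Gusb, beta-glucuronidase, by 0.62 ± 0.17 (edgeR adjusted p = 0.0358), each above every sham library in 16 of 20. Without Vehicle-sham 2 these 3 were at 1.02, 0.56 and 0.7 and did not pass.

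Among core proteins 1 of 13 rose. Sdc4, the heparan sulfate carrier syndecan-4, rose to 64.9 ± 14.4 CPM in CCI against 44.3 ± 6.18 CPM in sham (log2 fold change 0.54 ± 0.15, edgeR adjusted p = 0.0384). Sdc4 lay above every sham library in 18 of 20 and below every one in 1. Without Vehicle-sham 2 it was at 0.55 and did not pass. Of 8 other modifying enzymes 1 was called, Hs3st6, a further 3-O sulfotransferase that was close to undetected in sham. It had 4 to 17 counts per library in CCI and 0 to 4 in sham (log2 fold change 2.25 ± 0.53, edgeR adjusted p = 0.0246). Hs3st6 passed the filter on low counts only through CCI libraries, so no support is drawn from this p-value. The list median was -0.36, with Hs6st2 at -0.73 ± 0.24 and Ndst4 at -0.69 ± 0.24, neither of which passed.

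In the supply of the sulfate donor PAPS 1 of 5 genes fell. Bpnt2, the Golgi phosphatase that clears the spent donor, fell to 204 ± 38.6 CPM in CCI against 309 ± 143 CPM in sham (log2 fold change -0.6 ± 0.18, edgeR adjusted p = 0.0446). Its sham libraries ran from 179 to 533 CPM, the highest in Vehicle-sham 2, and without that library the value was -0.29. Of 7 receptors Robo1 and Robo2, which bind Slit proteins with heparan sulfate, fell by 0.58 ± 0.14 (edgeR adjusted p = 0.0247) and 0.53 ± 0.15 (edgeR adjusted p = 0.0446) on the log2 scale. Without Vehicle-sham 2 they were at -0.31 and -0.36. In chain initiation and polymerisation 0 of 12 passed (B3gat3 lowest in p, -0.53 ± 0.16, edgeR adjusted p = 0.0529), in sulfatase maturation 0 of 2, and among heparin-binding ligands 0 of 17 (Fgf9 at -0.59 ± 0.18, Fgf18 at -0.79 ± 0.26 and Hgf at 0.46 ± 0.16).

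**Figure D5:**
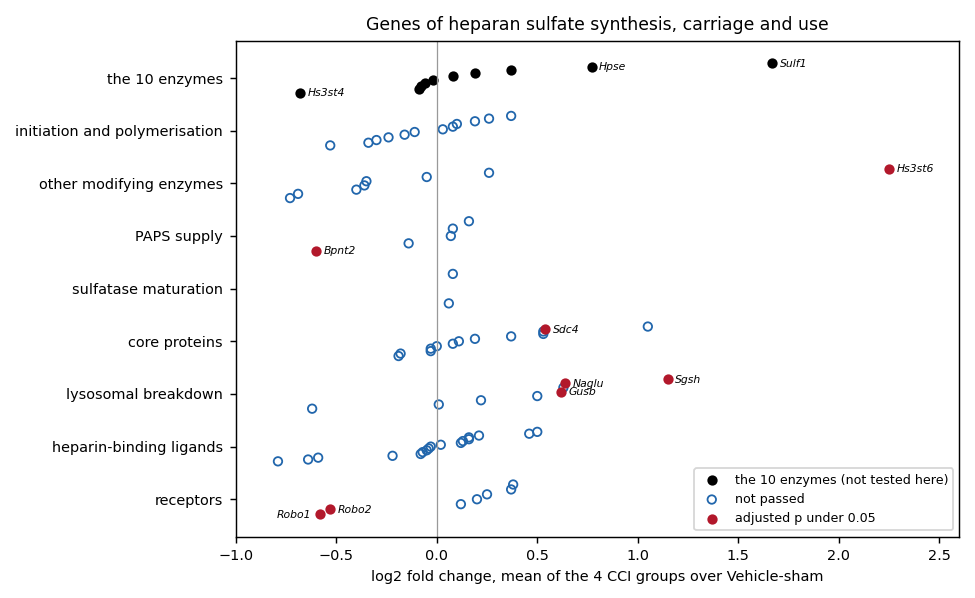
log2 fold change over Vehicle-sham, averaged over the 4 CCI groups, for the 10 genes (black, described without a test) and for 72 other genes of the pathway in 8 lists (open circles not passed, red circles at an edgeR adjusted p under 0.05). The 8 red genes are 5 higher and 3 lower, all 8 calls are lost without Vehicle-sham 2, and no support is drawn from them.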

How the data were processed

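The authors deposited raw counts per gene for each library and tables of log2 fold changes of each CCI group over sham. Per the submitters' processing notes, STAR, Salmon, featureCounts and DESeq2 were used with the mRatBN7.2 genome. The sources used here state neither their versions and roles nor the strand setting. Groups came from the sample labels (5 groups of 5 libraries). Counts were scaled by TMM and tested with edgeR 4.0.16 (quasi-likelihood F test, robust, R 4.3.3, limma 3.58.1) in 1 fit of all 25 libraries, after filtering low counts by group. The fit gave 11 contrasts, with Benjamini-Hochberg adjustment over all 21064 genes and a threshold of 0.05. SE is the absolute log2 fold change over the square root of F. 7 genes with empty cells were left out. Correlations used log2(CPM + 0.5). Family shares used counts divided by gene model length.

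The 10 genes and all lists were chosen with earlier results of these data known. Genes named beyond the 10 were the called pathway genes, those of smallest p in each pathway list, and the 5 most like Sulf1 in each ranking. One gene of these rankings is not reported here. Alternatives were DESeq2 1.42.0, its size factors, no filter, a minimum mean CPM of 1, the compared groups alone, the replicate number as a block, leaving out each library, and, added after the data were seen, leaving out Vehicle-sham 2 and 3 and a covariate for the mitochondrial rRNA share. The test was checked on simulated counts with 200 genes changed. Replicates of a group differed by far more than sampling noise.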

Additional observations from a re-analysis of the deposited data

Results flagged for a closer look

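Hs3st2 in TCF-CCI 1 lay apart from its group, at 5.76 CPM against 4.45 to 4.58 CPM in the other 4 TCF-CCI libraries, a gap of 0.896 of the range of the group. It was the 1 value so far from the others among the 50 groups of 5 values examined (10 genes in 5 groups). By chance about 1 in 20 groups pass the threshold used, which this gap exceeded.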

How the results depend on the processing

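Limits come first. The groups hold 5 libraries each, 2 of the 5 sham libraries carry a high mitochondrial rRNA share, and Hpse and Hs3st2 rest on few counts. The Sulf1 value of 1.67 ran from 1.63 to 1.73 in the other alternatives and 1.89 without Vehicle-sham 2 and 3. The number of the 10 genes called for the mean of the 4 CCI groups (3) was 0 without Vehicle-sham 2 and 3, 1 with the rRNA covariate, and 1 to 3 without 1 library (1 without Vehicle-sham 2, 1 without Vehicle-sham 4). Over sham, it was 0 or 1 without 1 library in TNF-CCI (0 without TNF-CCI 1, TNF-CCI 5 or Vehicle-sham 4), in TD-CCI and in Vehicle-CCI (1 without Vehicle-CCI 4), and 0 in TNF-CCI without Vehicle-sham 2 and 3. DESeq2 called 2 in TCF-CCI, 1 in TD-CCI and 1 in Vehicle-CCI, and TD-CCI had 1 with no filter, the replicate block or only the compared groups. The share of all genes called was not counted for these alternatives in single groups. The 8 other pathway genes became 14 with DESeq2, 12 with the replicate block, 0 without Vehicle-sham 2 and 3, 0 with the covariate and 0 to 14 without 1 library. All genes called (1248) became 2070 with no filter, 2448 with DESeq2, 1863 with the block, 168 with the covariate, 0 without Vehicle-sham 2 and 3, and 14 to 2117 without 1 library. Of the 10 genes, those near 0 turned sign: without 1 library Hs3st1 (-0.18 to 0.04), Hs2st1 (-0.11 to 0.01), Ndst1 (-0.19 to 0.03) and Ndst3 (-0.21 to 0.16), and without Vehicle-sham 2 and 3 Hs3st1 (0.17), Sulf2 (-0.01) and Hs6st1 (-0.14). Signs also turned for Hs6st2 (0.06 without Vehicle-sham 2 and 3), for Sulf1 in TCF-CCI over Vehicle-CCI (0.01 with no filter, 0.02 with the block, -0.17 to 0.25 without 1 library) and TNF-CCI over TD-CCI (-0.04 to 0.2), and without 1 library for Papss1 (-0.2 to 0.03), Slc35b3 (-0.03 to 0.35), Sumf1 (-0.03 to 0.2) and Sumf2 (-0.01 to 0.14). The causes were not tested. The main fit did not treat replicate numbers as a pairing. The r of same-numbered deviations ran from -0.42 to 0.52 over 50 pairs (median 0.15, 31 over 0.1), so that not every pair was over 0.1. Of 25 libraries, 10 correlated best with their own number. Whether libraries of the same number shared a source of variation was not tested. With the replicate number as a block Sulf1 was at 1.63 and 3 of the 10 were called, where 1863 genes were called in all.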
